A study of Mus musculus with 8 samples.

Results

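Transcripts of 10 genes of adipogenesis and lipid handling were followed in stromal cells of a mouse melanoma. The genes were selected by symbol from the 53801 genes of the count table, and all 10 had at least 1 read. They comprised the early adipogenic regulators Cebpb and Cebpd, the later regulators Cebpa and Pparg, the lipid handling stromal genes Lpl, Apod, Aoc3 and Lepr, and the mature adipocyte genes Fabp4 and Adipoq. They had been picked with the GFP+ against GFP- contrast in view, so their differences between the groups are described and not tested.

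The cells came from MO5 tumors, in which B16 melanoma cells that carry the ovalbumin gene had been implanted under the skin of young adult ADAM12-GFP mice. These mice, on the C57Bl/6 background, carry a bacterial artificial chromosome in which the Adam12 locus drives Cre and GFP, so cells of both groups bear the same transgene. PDPN+ PDGFRα+ stromal cells, without the leukocyte antigen CD45 or the endothelial antigen CD31, were sorted early in tumor growth into GFP+ (ADAM12+) and GFP- (ADAM12-) cells, with no treatment in either group. There were 4 libraries per group, and the labels do not name the mouse behind a library. The study's methods count replicates as mice unless another unit is given. Total counts were between 883144 reads, in GFP- replicate 3, and 31666734 reads, in GFP+ replicate 4. The next shallowest library had 7868787 reads.

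Adipogenesis is the conversion of a fibroblast-like progenitor into a fat cell. C/EBPβ and C/EBPδ are induced first, and they help to switch on PPARγ and C/EBPα, which then maintain each other and drive the genes of the lipid-storing cell. Many stromal cells that never become adipocytes use parts of this machinery, among them lipases, lipid carriers and the leptin receptor.

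The sorted cells did not carry an adipocyte profile. Of 8 adipocyte marker genes, 7 had a mean normalised count below 10 over the libraries (Plin1, Cidec, Adig, Retn, Lep, Cfd and Adrb3), and Retn had no read in any library. The summed normalised count of the 8 markers was 33.0 to 118 in GFP- and 43.0 to 90.3 in GFP+ libraries. The 6 genes of the stromal gate list (Pdgfra, Pdpn, Col1a1, Col1a2, Dcn and Lum) were abundant in all libraries, with summed normalised counts of 150274 to 291642 in GFP- and 316469 to 371962 in GFP+ libraries. Of these 6 genes, 4 were called higher in GFP+ libraries by DESeq2 (Pdgfra, Pdpn, Dcn and Lum). The 8 melanocyte genes summed to 24084 to 70809 in GFP- and 4505 to 11208 in GFP+ libraries, and all 8 were called lower in GFP+. The stromal gate genes took 1.63% to 2.87% of GFP- counts and 3.01% to 3.13% of GFP+ counts. The part of these differences in the values that follow was not tested. Each fold change was therefore also computed with the libraries scaled to the 6 stromal gate genes. That scaling moved the median log2 fold change over all tested genes from -0.01 to -0.88, and the share of called genes that were higher from 49.5% to 1.5%. In bulk libraries, fewer cells of a type cannot be told apart from less RNA per cell.

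In the fit over all genes, 9 of the 10 genes received a DESeq2 adjusted p and 5 were called higher in GFP+ at the threshold of 0.05 (Cebpb, Lpl, Apod, Aoc3 and Fabp4), against 4.66% of all 15283 genes tested. The edgeR quasi-likelihood test called the same 5, against 2.83% of 14323 genes. Called lower were 0 of the 10 by either tool, where DESeq2 called 4.76% of all genes lower and edgeR 2.28%, and 0 of the 10 had a lower value at an unadjusted p under 0.05. The 4 GFP+ libraries lay above all 4 GFP- libraries for these 5 genes, as they did for 6.37% of the genes tested, with 5.95% the other way round. All 10 fold changes were positive, with a median log2 fold change of 0.92, against -0.01 over all tested genes. Since the genes were picked on this contrast, nothing is read from these counts. With the libraries scaled to the stromal gate genes, 4 of the 5 were still called (Lpl, Apod, Aoc3 and Fabp4), while the fold changes of Cebpb, Cebpd, Cebpa and Lepr turned negative.

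**Figure D1:**
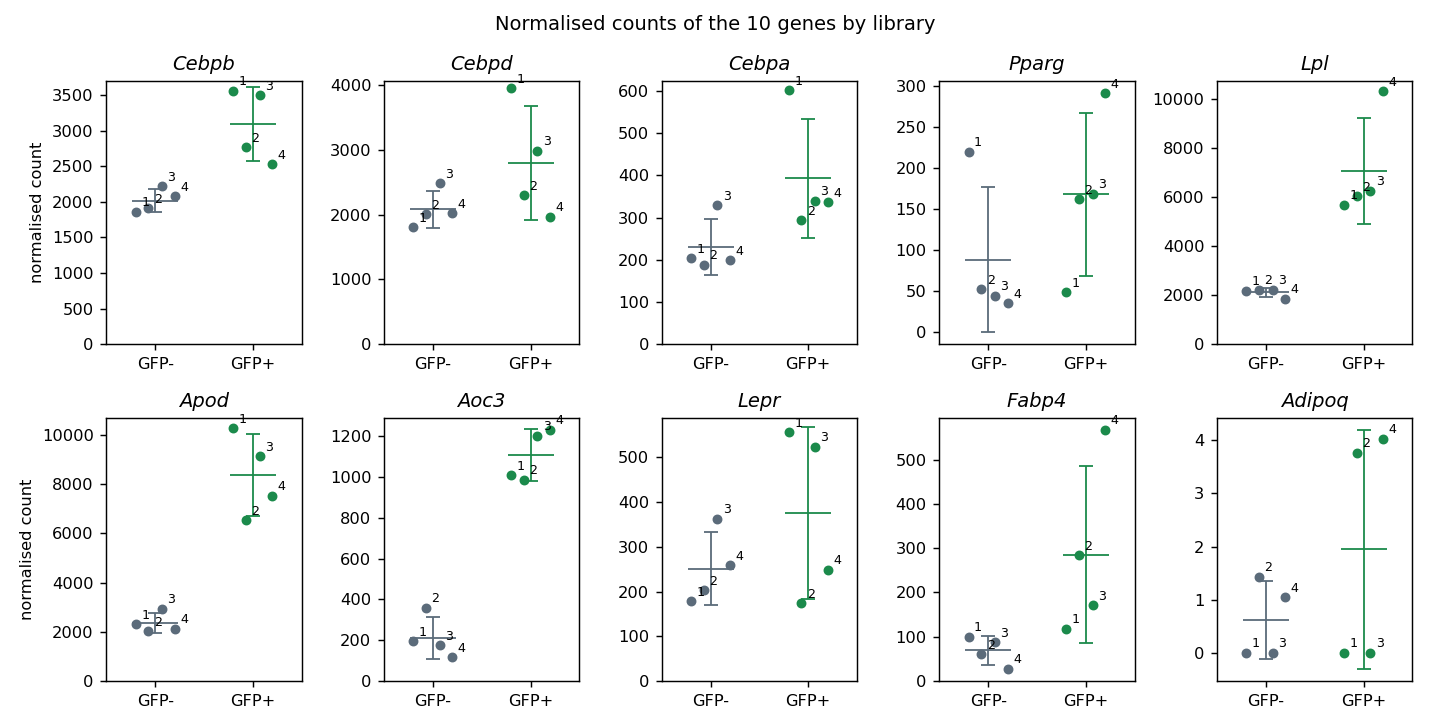
Normalised counts (vertical axes, linear, each with its own range) of the 10 genes in the 4 GFP- (grey) and 4 GFP+ (green) libraries. Numbers are replicate numbers, the horizontal line is the group mean and the bar is ± 1 SD. The groups do not overlap for Cebpb, Lpl, Apod, Aoc3 and Fabp4, and GFP- replicate 1 stands above the other GFP- libraries for Pparg, at 219.8.

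Cebpb and Cebpd, which encode the C/EBP factors that act first in adipogenesis and that also respond to inflammatory cytokines, were abundant in both groups. Cebpb (ENSMUSG00000056501, chromosome 2, 167688915 to 167690418, plus strand, GRCm38) had normalised counts of 1863, 1911, 2219 and 2077 in GFP- replicates 1 to 4. In GFP+ replicates 1 to 4 it had 3563, 2768, 3499 and 2530. The lowest GFP+ library was thus above the highest GFP- library, and GFP+ replicates 1 and 3 were the highest. The GFP- mean was 2018 ± 163 (SD, n = 4), the GFP+ mean was 3090 ± 519 (SD, n = 4), and the log2 fold change was 0.62 ± 0.17 (SE). Without GFP+ replicate 3 the gene was no longer called, at a log2 fold change of 0.56. With the libraries scaled to the stromal gate genes the log2 fold change was -0.27, so that the direction depended on the scaling.

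Cebpd (ENSMUSG00000071637, chromosome 16, 15887286 to 15891031, plus strand) had normalised counts of 1811, 2009, 2483 and 2027 in GFP- replicates 1 to 4. Its GFP+ values were 3956, 2300, 2986 and 1970 in the same order. GFP+ replicates 1 and 3 lay above all GFP- libraries and GFP+ replicates 2 and 4 lay among them, which was the same division of the GFP+ libraries as for Cebpb. Cebpd was not called, with a log2 fold change of 0.43 ± 0.24 (SE). It was 0.75, and called, when the 2 deepest libraries (GFP+ replicates 2 and 4) were left out, and -0.46 with scaling to the stromal gate genes. The log2 ratio of Cebpb to Cebpd within a library lay between -0.16 and 0.36 in all 8 libraries, averaging -0.04 ± 0.10 in GFP- and 0.18 ± 0.23 in GFP+ libraries (SD, n = 4 each). Cebpb and Cebpd overlap Tmem189 and Spidr on the opposite strand in the annotation, and the reads had been counted by strand.

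Cebpa and Pparg encode the factors that carry differentiation to its end, and both were present at lower counts. Cebpa (ENSMUSG00000034957, chromosome 7, 35119293 to 35121928, plus strand) had normalised counts of 203.5, 188, 329.6 and 199 in GFP- replicates 1 to 4. In GFP+ replicates 1 to 4 it had 601, 293, 339.6 and 336. GFP+ replicate 1 stood high, and the highest GFP- library, the shallow replicate 3, reached into the GFP+ range. Cebpa had a log2 fold change of 0.83 ± 0.31 (SE), not called. Leaving out GFP- replicate 3 took it to 0.98, and TMM factors left it at 0.83, and Cebpa was called in both fits. Scaling to the stromal gate genes gave -0.07.

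Pparg (ENSMUSG00000000440, chromosome 6, 115360951 to 115490399, plus strand) encodes the nuclear receptor that is required for fat cell formation. Its normalised counts were 219.8, 52.3, 44.0 and 35.2 in GFP- replicates 1 to 4, and 48.6, 162, 168 and 291 in GFP+ replicates 1 to 4. The value of the shallow GFP- replicate 3 came from only 4 reads. A single library in each group ran against its fellows, GFP- replicate 1 with more and GFP+ replicate 1 with less. The log2 fold change of 0.90 ± 0.66 (SE) accordingly depended on 1 library. It was 1.94, and called, without GFP- replicate 1, and 0.50, not called, without GFP+ replicate 4. It was 0.28 without GFP+ replicates 2 and 4 and 0.16 with scaling to the stromal gate genes, and was not called in either. The ratio of Pparg to Cebpa ran over a wide range, from -3.60 on the log2 scale in GFP+ replicate 1 to 0.11 in GFP- replicate 1. Antisense genes overlap Cebpa (Gm45091) and Pparg (Gm44079) on the opposite strand.

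The sequence upstream of Pparg is shown because C/EBP factors are known to act on its downstream promoter, which makes the transcript typical of fat cells. RefSeq windows of 250 bases upstream of a start site (GRCm38.p6) were at hand for Cebpb, Cebpa, Pparg, Apod, Lepr and Adipoq, and both strands were searched for the C/EBP letters TTGCNNAA. Of these 6 genes, only Pparg had a match, in 1 of its 3 windows, and it was also the gene with the most windows searched. The window at chr6:115421816-115422065, plus strand, held 2 matches, shown in capitals, whose first bases lie 215 and 16 bases before the start site.
Pparg, downstream start: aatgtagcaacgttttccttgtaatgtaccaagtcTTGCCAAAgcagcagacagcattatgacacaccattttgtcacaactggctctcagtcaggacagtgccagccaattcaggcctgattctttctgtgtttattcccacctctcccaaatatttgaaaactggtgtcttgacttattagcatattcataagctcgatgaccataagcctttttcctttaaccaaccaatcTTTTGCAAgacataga
Of all 32851 windows of this length, 9.56% held at least 1 such match. A match is a run of letters and does not show binding. The counts are per gene, so reads from the downstream start were not separated from those of the upstream starts.

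Lpl, Apod and Aoc3 were 3.34-, 3.56- and 5.24-fold higher in the GFP+ mean than in the GFP- mean. Lpl encodes lipoprotein lipase, which frees fatty acids from circulating lipoproteins. Lpl (ENSMUSG00000015568, chromosome 8, 68880491 to 68907448, plus strand) had normalised counts of 2179, 2220, 2219 and 1858 in GFP- replicates 1 to 4. In GFP+ replicates 1 to 4 it had 5692, 6030, 6260 and 10303. Each GFP+ library exceeded each GFP- library, and GFP+ replicate 4 stood above the other 3. Group means of 2119 ± 175 and 7071 ± 2167 (SD, n = 4 each) gave a log2 fold change of 1.74 ± 0.22 (SE). It was 1.5 without GFP+ replicate 4 and 0.90 with scaling to the stromal gate genes.

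Apod encodes apolipoprotein D, a small carrier of lipids. Apod (ENSMUSG00000022548, chromosome 16, 31296192 to 31314808, minus strand) had normalised counts of 2309, 2029, 2945 and 2128 in GFP- replicates 1 to 4. Its GFP+ values were 10291, 6543, 9151 and 7543. The groups were far apart, and within GFP+ replicates 1 and 3 were again the highest, as for Cebpb and Cebpd. Group means were 2353 ± 411 and 8382 ± 1666 (SD, n = 4 each), and the log2 fold change was 1.84 ± 0.20 (SE), or 0.96 with scaling to the stromal gate genes.

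Aoc3 encodes vascular adhesion protein, an amine oxidase of the cell surface that is abundant in fat, smooth muscle and endothelium. Aoc3 (ENSMUSG00000019326, chromosome 11, 101330605 to 101341938, plus strand) had normalised counts of 194, 359, 176 and 117 in GFP- replicates 1 to 4. In GFP+ replicates 1 to 4 it had 1008, 988, 1202 and 1232. The GFP+ libraries were close to each other, with a coefficient of variation of 0.115, and the GFP- libraries were spread more widely, at 0.490. The log2 fold change of 2.37 ± 0.33 (SE) was the highest of the 10 with the size factors from all genes, but not with limma voom (2.55, against 2.67 for Fabp4) or without GFP- replicate 1 (2.31, against 2.42), and was 1.55 with scaling to the stromal gate genes. It ran from 2.13 to 2.81 when each library was left out in turn. Aoc3 lies opposite the antisense gene Gm28156. Of 10 endothelial markers, 6 had mean normalised counts below 10 (Cdh5, Tie1, Emcn, Egfl7, Cldn5 and Esam), and their summed counts were 1492 to 2934 in GFP- and 1908 to 3560 in GFP+ libraries, with 0 of 10 called higher by DESeq2, 1 called lower (Vwf) and 3 at an unadjusted p under 0.05. Kdr, which was not called, had mean normalised counts of 505 in GFP- and 1103 in GFP+, with 3 GFP+ libraries above all GFP- libraries. The 9 mural markers, which include smooth muscle genes, summed to 771 to 1340 in GFP- and 759.6 to 1673 in GFP+ libraries. Of these 9, DESeq2 called 1 higher (Abcc9, mean normalised count 275 in GFP- and 589 in GFP+) and 1 lower (Mcam). The part of such cells in the Aoc3 difference was not tested.

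Relative to the stromal gate genes of the same library, these 3 genes again gave groups that did not overlap. The log2 ratio to the mean of the gate genes for Lpl was -2.79 ± 0.12 in GFP- and -1.95 ± 0.47 in GFP+ libraries (SD, n = 4 each). For Apod it was -2.65 ± 0.27 and -1.68 ± 0.14, and for Aoc3 it was -6.22 ± 0.52 and -4.58 ± 0.21, with the same n. The other 7 genes overlapped on this scale.

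Lepr (ENSMUSG00000057722, chromosome 4, 101717404 to 101815352, plus strand) encodes the leptin receptor, a marker of perivascular stromal cells that can form fat in bone marrow. Its normalised counts were 178, 203.5, 363 and 259 in GFP- replicates 1 to 4, and 557, 173, 524 and 249 in GFP+ replicates 1 to 4. GFP+ replicates 1 and 3 lay above all GFP- libraries, while GFP+ replicate 2 lay below them all. Lepr had a log2 fold change of 0.61 ± 0.41 (SE), not called. It was 1.17, and called, without GFP+ replicates 2 and 4, and -0.33 with scaling to the stromal gate genes.

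Fabp4 and Adipoq, the genes closest to the mature fat cell, were a small part of these libraries. Fabp4 (ENSMUSG00000062515, chromosome 3, 10204088 to 10208576, minus strand) encodes a fatty acid binding protein that is made by adipocytes and also by macrophages and endothelial cells. Its normalised counts were 100.4, 60.2, 87.9 and 27.3 in GFP- replicates 1 to 4. In GFP+ replicates 1 to 4 they were 118, 284.5, 171 and 568. The value of the shallow GFP- replicate 3 came from only 8 reads. The groups did not overlap, but the lowest GFP+ library was close to the highest GFP- library, and GFP+ replicate 4 had nearly as many as the other 3 GFP+ libraries together. The log2 fold change was 2.10 ± 0.55 (SE). It was 1.53, and no longer called, without GFP+ replicate 4, 1.12, not called, without GFP+ replicates 2 and 4, and 1.35 with scaling to the stromal gate genes. The 10 macrophage and leukocyte markers summed to 1273 to 6526 in GFP- and 1142 to 5118 in GFP+ libraries, with 0 of 10 called in either direction by DESeq2 or edgeR, and 0 at an unadjusted DESeq2 p under 0.05. The part of other cells in the Fabp4 reads was not tested.

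Adipoq (ENSMUSG00000022878, chromosome 16, 23146536 to 23158028, plus strand) encodes adiponectin, which is secreted by adipocytes. It had 0, 2, 0 and 2 reads in GFP- replicates 1 to 4 and 0, 9, 0 and 12 reads in GFP+ replicates 1 to 4. The only libraries with reads were the deeper ones of each group, and the gene received no adjusted p. No difference was detectable at this depth. A count of 0 allows up to 3 reads, which after scaling is a normalised count of 33.0 in GFP- replicate 3 and 4.17 in GFP+ replicate 1.

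**Figure D2:**
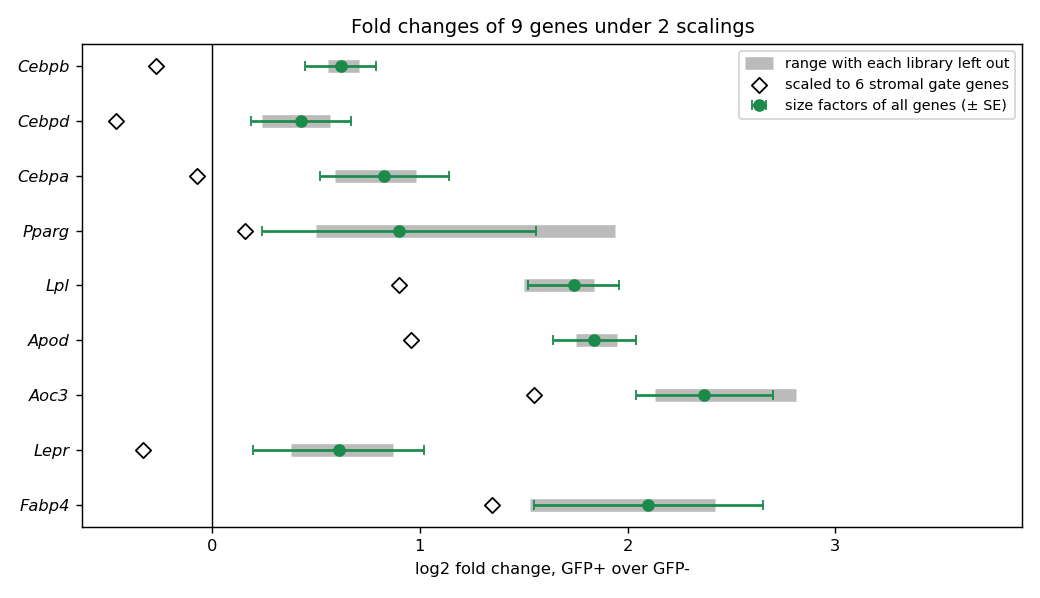
Log2 fold changes (horizontal axis, GFP+ over GFP-) of the 9 genes with an adjusted p. Green points are the DESeq2 estimates with size factors from all genes and bars are ± 1 SE, grey bands are the range over the 8 fits that leave out 1 library each, and open diamonds are the estimates with libraries scaled to 6 stromal gate genes. Lpl, Apod, Aoc3, Fabp4 and Pparg stay to the right of 0 in all of these, while Cebpb, Cebpd, Cebpa and Lepr cross it with the other scaling.

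The levels of the 10 genes were then set in order, as normalised count per kb of annotated exon, over all 8 libraries. Apod came first, with a median level of 1841 per kb (lowest 787, highest 3994), followed by Cebpb with 1579 (1239 to 2369) and Cebpd with 578 (484 to 1056). Lpl had a median level of 378 per kb, Cebpa 118 and Aoc3 146. The lowest levels were those of Lepr, with a median of 36.0 per kb, Pparg with 36.3, Fabp4 with 24.3 and Adipoq with 0.380. Neighbours in the order of mean log2 levels were compared within libraries by two-sided exact sign-flip permutation tests, adjusted over the 9 pairs. Cebpb lay above Cebpd in 8 of 8 libraries, by a log2 level difference of 1.38 ± 0.20 (SD, n = 8), with an exact permutation p of 0.00781, the smallest that 8 libraries allow, and an adjusted p of 0.0234. Lpl above Cebpa (1.72 ± 0.72) gave the same exact p and adjusted p. The difference of Cebpb and Cebpd rested mostly on their annotated lengths, of 1504 and 3746 bases. Before division by length their log2 ratio within a library lay between -0.16 and 0.36, so this p does not measure a difference in their counts. The neighbours were also chosen on the same levels that were compared. Adipoq had no read in 4 of 8 libraries, so the size of its distance from Fabp4 depends on the pseudocount and is not given. In 7 of 8 libraries, all but the shallow GFP- replicate 3, Fabp4 lay above the level that 3 reads, or the reads counted where these were more, would give Adipoq. For the remaining 6 pairs of neighbours (Apod and Cebpb, Cebpd and Lpl, Cebpa and Aoc3, Aoc3 and Lepr, Lepr and Pparg, Pparg and Fabp4), exact permutation tests over both groups gave adjusted p of 0.0703 to 0.844. The order over all libraries hides differences between the groups. Cebpb lay above Apod in all 4 GFP- libraries and below it in all 4 GFP+ libraries, with a log2 level of Apod over Cebpb of -0.57 ± 0.18 and 0.66 ± 0.15 (SD, n = 4 each). Cebpa lay above Aoc3 in 3 of 4 GFP- libraries and in 1 of 4 GFP+ libraries, with a log2 level of Cebpa over Aoc3 of 1.01 ± 0.84 and -0.74 ± 0.54. These follow from group differences used in picking the genes and were not tested. Part of this order came from the annotated lengths. With the length of the principal transcript instead, Lpl (4115 in place of 10478 bases) moved above Cebpd and Fabp4 (896 in place of 4489 bases) moved to the fifth place, and 0 of the 9 new neighbour pairs passed (3 had an exact permutation p under 0.05 before adjustment, and the smallest adjusted p was 0.0703).

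**Figure D3:**
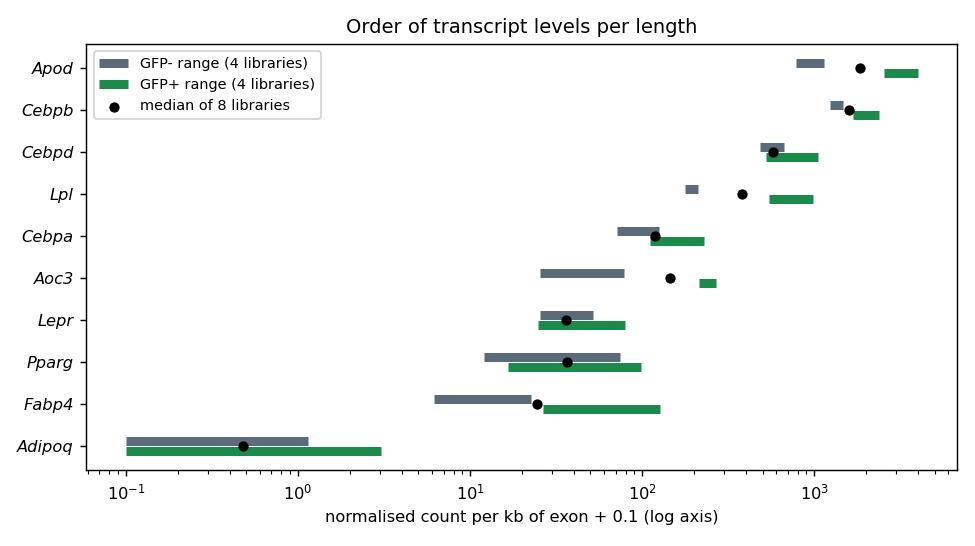
Levels per length of the 10 genes (normalised count per kb of annotated exon + 0.1, log axis), in order of their mean log2 level. Grey and green bars span the 4 GFP- and 4 GFP+ libraries and black points are medians of all 8 libraries. The order runs from Apod, at a median of 1841, to Adipoq, at 0.380, and within the GFP- libraries alone Cebpb lies above Apod.

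Several genes varied together from library to library within the groups, and the sets below were drawn up from these values. Correlations are Pearson r of log2(normalised count + 1) with group means removed over the 8 libraries, given as a description. In GFP- replicate 3 the values of Pparg, Fabp4, Aoc3 and Cebpa rested on 4, 8, 16 and 30 reads. Cebpb and Cebpd had r = 0.94, and their r with Lepr was 0.91 and 0.85. Cebpa and Apod joined this set, with r = 0.89 between them and r = 0.89 between Apod and Lepr. The second set was led by Fabp4, with r = 0.81 to Lpl and r = 0.76 to Pparg. Across the sets r ran from -0.76, for Cebpd and Pparg, to -0.18, for Apod and Lpl, with -0.72 for Cebpb and Fabp4 and -0.23 for Cebpa and Fabp4. In the 4 GFP- libraries alone some of these values were positive, with r = 0.54 for Apod and Fabp4 and 0.42 for Cebpa and Fabp4, against -0.75 and -0.67 in the 4 GFP+ libraries. For Cebpb and Fabp4 the values were -0.19 and -0.96 in the same order. When each library was left out in turn, r stayed between 0.89 and 0.98 for Cebpb and Cebpd, between 0.77 and 0.90 for Lpl and Fabp4, and between -0.89 and -0.50 for Cebpb and Fabp4. Other values across the sets rested on single libraries and ran from -0.87 to -0.17 for Cebpb and Lpl, from -0.52 to 0.31 for Cebpa and Fabp4, from -0.49 to 0.11 for Apod and Fabp4 and from -0.47 to 0.11 for Apod and Lpl. Aoc3 had r between -0.26 and 0.39 to the other 9 genes, although its r to Lpl was 0.75 in the GFP- and 0.72 in the GFP+ libraries taken separately (n = 4 each). Cebpb and Pparg had r = -0.71 in the GFP- and -0.75 in the GFP+ libraries.

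Properties of the libraries moved with these sets. The first set ran against the melanocyte markers, with r = -0.87 for Cebpd, -0.85 for Cebpb, -0.80 for Apod, -0.74 for Lepr and -0.70 for Cebpa. The set ran against the log2 total count, with r = -0.84 for Apod, -0.82 for Cebpa, -0.65 for Cebpd, -0.61 for Lepr and -0.59 for Cebpb. It also ran against the Schwann markers, with r = -0.93 for Cebpa, -0.91 for Cebpd, -0.77 for Apod, -0.75 for Cebpb and -0.73 for Lepr, while Pparg had r = 0.80 to them. Fabp4 had r = 0.34 to the melanocyte markers and r = -0.08 to the log2 total count over all 8 libraries, but these values joined groups that differed. In the 4 GFP+ libraries they were 0.98 and 0.96, and in the 4 GFP- libraries -0.70 and -0.60. For Lpl, r was 0.51 and 0.12 over all, 0.84 and 0.72 in GFP+, and -0.74 and -0.51 in GFP- libraries. With the adipocyte markers, most of which were near 0, Pparg had r = 0.60 and Fabp4 r = 0.19. With 4 points a group, such values are imprecise. The part of depth and of other cells in these correlations was not tested.

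The genes whose pattern within the groups was closest to each of the 9 abundant genes were found among 10584 others. For Cebpb these were Plpp3 (r = 0.982), Seh1l and Antxr1, and for Cebpd Tmem29 (r = 0.980), Slc23a2 and Mef2a. For Apod they were Gadd45g (r = 0.979), Klf13 and Nek6, and for Lepr Rfx5 (r = 0.971), Riox1 and Cul3. For Pparg they were Serpinb9 (r = 0.993), Rfx1 and Trim39, and for Cebpa the predicted genes Gm3788 (r = 0.985) and Gm13436, and Ltbp1. Fabp4 was closest to Myo19 (r = 0.973), Klf7 and Dclk1, Lpl to Olfm2 (r = 0.949), Serpina3g and Scarb2, and Aoc3 to Jpt2 (r = 0.962), Cdc25b and B230219D22Rik. None of the nearest was another of the 10, and r over 8 points was picked from many genes, so these are descriptions.

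**Figure D4:**
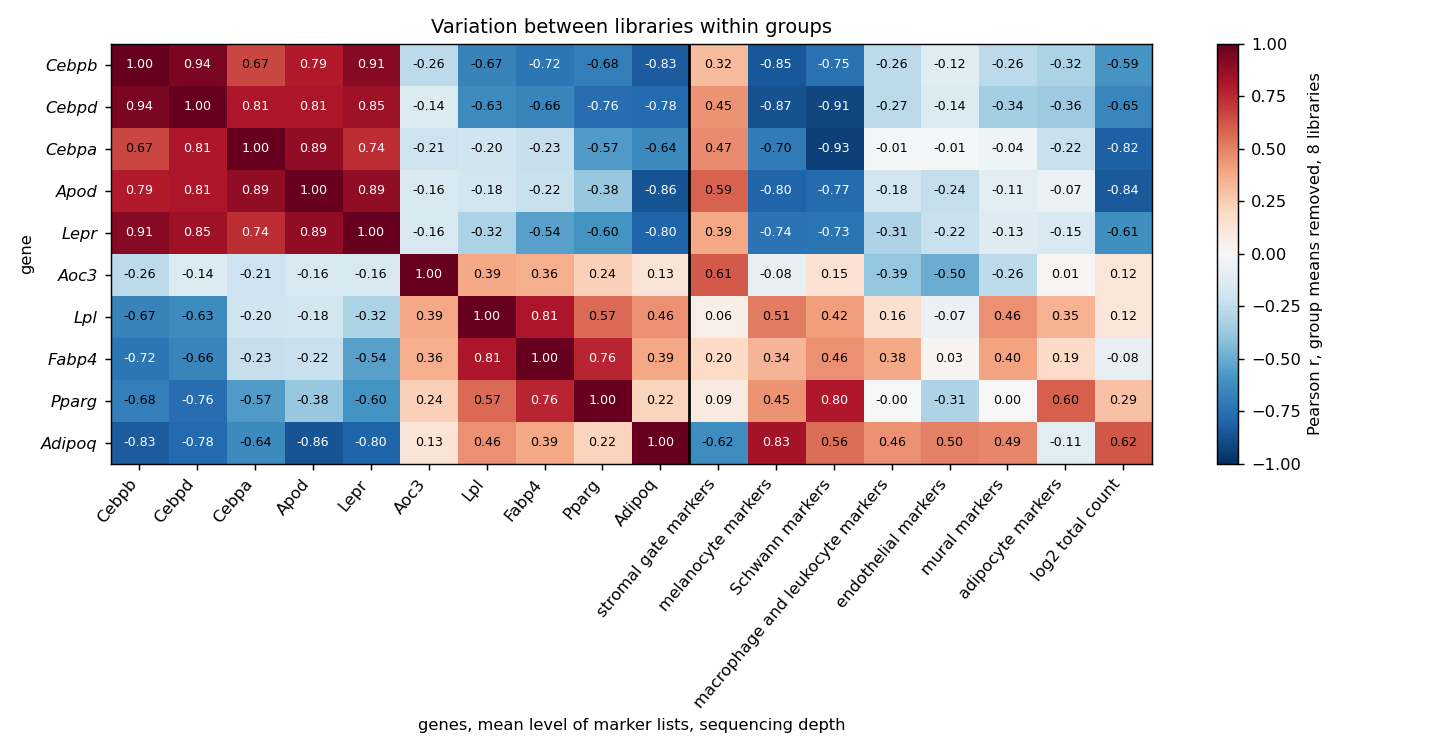
Pearson r (colour and printed value) between each of the 10 genes (rows) and the same genes, the mean log2 level of 7 marker lists and the log2 total count (columns), over 8 libraries with the group means removed. Cebpb, Cebpd, Cebpa, Apod and Lepr form a block with r of 0.67 to 0.94, and Lpl, Fabp4 and Pparg a block with r of 0.57 to 0.81.

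The wider pathway was examined through 105 other genes in 6 lists of adipogenesis and lipid handling, of which 86 received a DESeq2 adjusted p. Of these, 17 (19.8%) were called higher in GFP+ cells and 6 (6.98%) lower, against 4.66% and 4.76% of all genes tested. Their median log2 fold change was 0.19. The edgeR test called 15 of 85 higher and 2 lower. The lists were drawn up with earlier results of these data known. Their shares of calls, and the adjusted p of their genes below, are therefore descriptions and are not read as enrichment. With the libraries scaled to the stromal gate genes, 0 were called higher by DESeq2 (4 at an unadjusted p under 0.05) and 41 lower, with a median of -0.69 against -0.88 over all genes. All the increases below are therefore relative to the whole library.

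Among 18 other regulators that promote adipogenesis, 5 rose and 0 fell by DESeq2 (1 had a lower value at an unadjusted p under 0.05; edgeR and limma voom called 0 lower). Klf5, a Krüppel-like factor that C/EBP proteins induce in preadipocytes, rose from 17.6 to 88.2 normalised counts in GFP- libraries to 145 to 457 in GFP+ libraries, by 2.22 ± 0.54 on the log2 scale (SE, DESeq2 adjusted p = 0.00127, edgeR adjusted p = 0.0323). Klf9, another factor of this family, rose by 1.04 ± 0.21 (DESeq2 adjusted p = 5.79e-05) and Egr2, the early response factor also known as Krox20, by 1.02 ± 0.27 (DESeq2 adjusted p = 0.00337). Nr3c1, the glucocorticoid receptor, through which dexamethasone induces Cebpd in culture, rose by 0.58 ± 0.16 (DESeq2 adjusted p = 0.0052), and its call was lost without GFP- replicate 2 (DESeq2 adjusted p = 0.0532) or GFP+ replicate 3 (0.052). Klf4, which acts with Egr2 upstream of Cebpb, rose by 0.57 ± 0.19 (DESeq2 adjusted p = 0.0387), but not by edgeR (adjusted p = 0.0798), and lost its call in 5 of the 8 fits that left out 1 library. With scaling to the stromal gate genes Nr3c1 and Klf4 turned to -0.30 and -0.33. The other 13 ranged from -1.08 to 0.88.

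Of 12 tested genes that restrain adipogenesis, 0 rose (1 had a higher value at an unadjusted p under 0.05; edgeR and limma voom called 0 higher) and 2 fell by DESeq2. Ddit3, a C/EBP relative that blocks C/EBPβ and is induced by stress, fell by 1.56 ± 0.44 on the log2 scale (SE, DESeq2 adjusted p = 0.00757, edgeR adjusted p = 0.0556), and without GFP- replicate 4 the DESeq2 adjusted p was 0.0611. Wnt10b, a Wnt ligand that holds preadipocytes undifferentiated, fell by 2.30 ± 0.79 (DESeq2 adjusted p = 0.041, edgeR adjusted p = 0.215), a call that was lost without GFP- replicate 2, 3 or 4 or GFP+ replicate 3 (DESeq2 adjusted p 0.106 to 0.141). Foxc2 had no read. The other 10 ranged from -0.88 to 0.59, among them Dlk1, the preadipocyte factor, at -0.88 ± 0.83.

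In the list on lipoprotein lipase and lipid handling, 4 of 24 tested genes rose and 2 fell by both DESeq2 and edgeR. Cd36, the fatty acid translocase, rose by 1.70 ± 0.42 on the log2 scale (SE, DESeq2 adjusted p = 0.00142), with 68.1 to 286 normalised counts in GFP- and 310.4 to 516 in GFP+ libraries. Vldlr and Lrp1, both receptors for lipoprotein particles, rose by 1.06 ± 0.29 and 0.86 ± 0.18 (DESeq2 adjusted p = 0.00435 and 5.04e-05). Abca1, the cholesterol exporter, rose by 0.77 ± 0.21 (DESeq2 adjusted p = 0.00607). Fabp5, a fatty acid binding protein of skin from the same family as Fabp4, fell by 2.82 ± 0.64 (DESeq2 adjusted p = 0.000433), from 323 to 871 normalised counts in GFP- to 4.17 to 136 in GFP+ libraries. Fabp5 and Fabp4 thus lay on opposite sides. The Fabp5 call was lost without GFP+ replicate 3 (DESeq2 adjusted p = 0.0804). Scarb1, the HDL receptor, fell by 1.45 ± 0.32 (DESeq2 adjusted p = 0.000319). Lrp1 and Abca1 stood at -0.00 and -0.10 with scaling to the stromal gate genes. Gpihbp1, which holds lipoprotein lipase on capillaries, had reads in only 2 libraries, and Apoc2, the activator of the lipase, had no read.

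Of the mature adipocyte list, 7 of 18 genes were tested, 1 rose and 1 fell by DESeq2, and edgeR called 0 in either direction (1 in each direction at an unadjusted p under 0.05). Plin4, a coat protein of lipid droplets, rose by 2.69 ± 0.86 on the log2 scale (SE, DESeq2 adjusted p = 0.0241, edgeR adjusted p = 0.15), from 0 to 22.2 normalised counts in GFP- to 25.0 to 156 in GFP+ libraries. Its call was lost without GFP- replicate 4 or GFP+ replicate 2, 3 or 4 (DESeq2 adjusted p 0.0586 to 0.209). Gpd1, which makes the glycerol backbone of stored fat, fell by 2.34 ± 0.61 (DESeq2 adjusted p = 0.00315, edgeR adjusted p = 0.0586). Plin1, the perilipin of mature fat cells, had 0 to 1.58 normalised counts in GFP- and 1.67 to 18.4 in GFP+ libraries and was not called. Gpd1, Fabp5, Scarb1, Ddit3 and Wnt10b were lower in the same group as the 8 melanocyte genes, and the part of melanocyte transcripts in their difference was not tested.

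Among the 10 tested genes of a list on receptors and signalling partners of leptin and adiponectin, which also holds the amine oxidase Aoc2, a relative of Aoc3, Socs3, the inhibitor of leptin receptor signalling, rose by 0.73 ± 0.20 on the log2 scale (SE, DESeq2 adjusted p = 0.00534, edgeR adjusted p = 0.0297) and stood at -0.18 with scaling to the stromal gate genes. The other 9 ranged from -0.36 to 0.38, the value of Aoc2. In the preadipocyte and LepR+ stromal list DESeq2 called 6 of 15 higher and 1 lower, and edgeR called the same number higher. F3, tissue factor, which marks a regulatory stromal population of fat, rose by 1.33 ± 0.23 (DESeq2 adjusted p = 5.85e-07), Ly6a by 1.23 ± 0.18 (4.45e-09), Vcam1 by 1.20 ± 0.32 (0.00358), Icam1 by 1.15 ± 0.19 (2.39e-07) and Cxcl12, the chemokine of marrow stroma, by 1.09 ± 0.21 (9.09e-06), and 0 of these 5 were called with scaling to the stromal gate genes (adjusted p 0.0835 to 0.411). Icam1, Ly6a and Vcam1 are genes that the study had picked out on these samples, so that they are not independent evidence of a direction. Foxc1, a forkhead factor of LepR+ marrow stroma, fell by 2.85 ± 0.75 (DESeq2 adjusted p = 0.00331, edgeR adjusted p = 0.059), and lost its call without GFP- replicate 4 (DESeq2 adjusted p = 0.0741). Foxc1 too was lower in the same group as the melanocyte genes, and the part of their transcripts in its difference was not tested. Lepr, which gives this list its name, was itself not called.

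**Figure D5:**
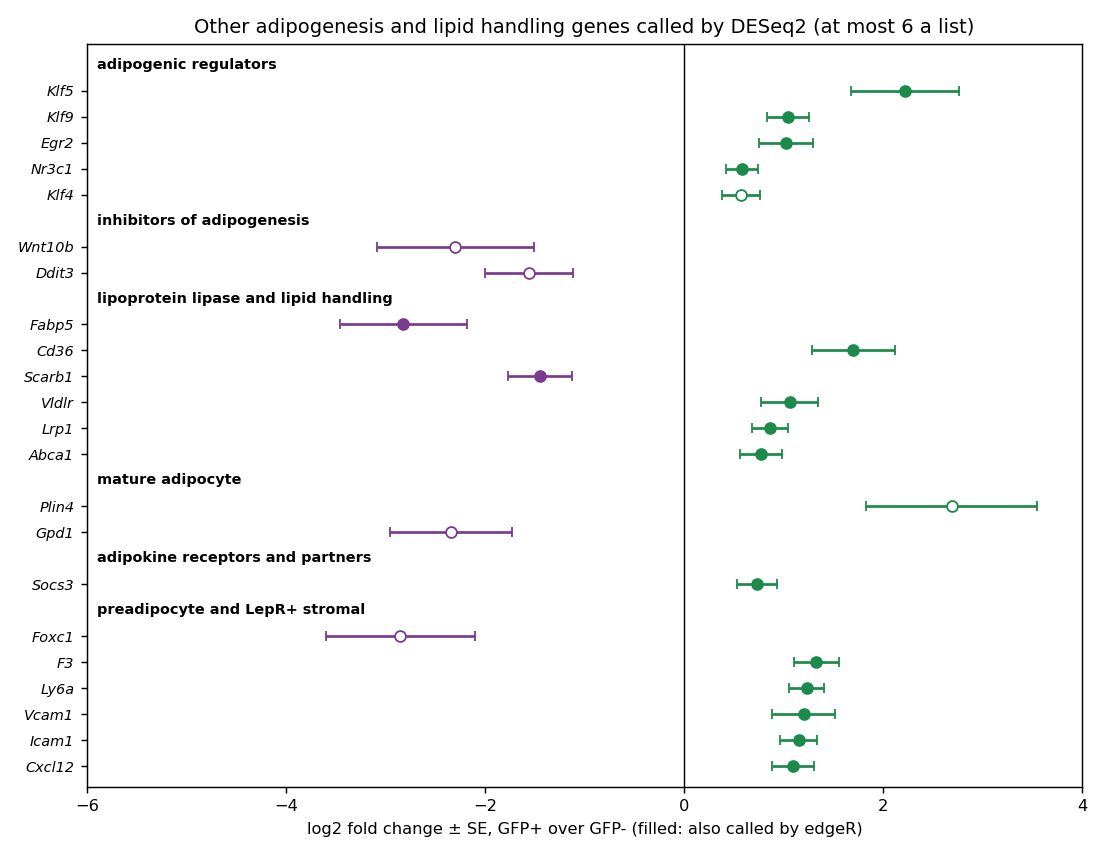
Log2 fold changes ± SE (horizontal axis, GFP+ over GFP-) of the genes of 6 pathway lists that DESeq2 called, at most 6 per list, green where higher and purple where lower. Filled points were also called by edgeR. Klf5 (2.22) and Cd36 (1.70) lie to the right of 0, and Fabp5 (-2.82) and Foxc1 (-2.85) farthest to the left.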

How the data were processed

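RNA of sorted stromal cells was sequenced in 8 libraries, 4 GFP+ and 4 GFP-, grouped by the state and replicate number in their labels. Per the methods and the submitters' processing notes, the authors trimmed reads with cutadapt 3.4, mapped them to GRCm38 with STAR 2.7.3a and counted them per Ensembl gene by strand with featureCounts 2.0.1. The deposited table holds for each library and gene a raw count of reads and the authors' normalised score, a rounded count over the library's DESeq2 size factor. Its further columns hold the authors' means, fold changes, dispersions, p-values and adjusted p-values, which were not used. Per-sample columns left unused: 0.

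All values were computed from the raw counts. Size factors equalled those implied by the deposited scores. DESeq2 1.42.0 (R 4.3.3) was fitted to 29043 genes with a read, with the group as the only term, independent filtering and Benjamini-Hochberg adjustment, calling genes at an adjusted p under 0.05 (712 higher and 727 lower of 15283). edgeR 4.0.16 (quasi-likelihood, TMM) and limma 3.58.1 (voom) were run beside it. On simulated counts with 100 genes changed at each fold, DESeq2 recovered 51 at a log2 fold of 1 and 90 at 2, with 90 false calls, and edgeR 28 and 79, with 5 false calls, so edgeR calls are given beside those of DESeq2. Counts that were not collapsed by molecular identifiers carry errors beyond counting, so the spread between libraries is the error given, and the limit of 3 reads for a count of 0 covers counting error only. No pair of libraries of a group was closer than independent libraries (chi-square per degree of freedom 10.2 to 81.3). Levels were per kb of exon in GENCODE M21, which held 53706 of the 53801 identifiers, with a pseudocount of 0.1.

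The genes and lists were chosen with earlier results of these data known. All 10 genes were named, with the called genes of each list by size of change, at most 6 per list, and the 3 genes with the highest within-group correlation to each of the 9 genes whose mean normalised count reached 50. The 6 Schwann markers summed to 615 to 1785 in GFP- and 236 to 488 in GFP+ libraries. Other settings were DESeq2 with TMM factors, only genes averaging 10 raw counts, DESeq2 without its independent or Cook's distance filters, the replicate number as a block, and each library left out. Chosen after seeing the data were scaling to 6 stromal gate genes, leaving out the 2 deepest libraries, and principal transcript lengths. Deviations of same-numbered libraries had r of 0.08, -0.17, -0.13 and 0.25 over 10585 genes. These libraries were not treated as pairs, although pairing was not excluded.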

Additional observations from a re-analysis of the deposited data

Results flagged for a closer look

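Within a group of 4 libraries, a single library stood far from the other 3 in 5 cases out of 20 groups examined, by Dixon's ratio of the gap to the nearest library over the whole range. Chance gives about 1 in 20 groups, and the same library can count for several genes. Cebpa stood high in GFP- replicate 3 (329.6 normalised counts, ratio 0.889), and in GFP+ replicate 1 (601, ratio 0.850), each the shallowest library of its group. Pparg stood high in GFP- replicate 1 (219.8, ratio 0.907). Lpl stood low in GFP- replicate 4 (1858, ratio 0.886) and high in GFP+ replicate 4 (10303, ratio 0.877), each the deepest library of its group and the one with the most melanocyte counts. Fabp4 was also highest in GFP+ replicate 4, at 568. The part of depth or of other cells in these values was not tested.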

How the results depend on the processing

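Of the 10 genes, 5 were called, and the number ran from 4 to 6 over all other settings. The edgeR test called 732 genes in all against 1439, and 2 in place of 6 pathway genes lower. With each library left out, 3 to 9 pathway genes were called lower, the fewest without GFP- replicate 4. Without the 2 deepest libraries, 13 pathway genes were called higher and 6 lower, and Cd36, Egr2, Vcam1 and Plin4 were not called (DESeq2 adjusted p = 0.0787, 0.167, 0.0581 and 0.382). Klf5, Wnt10b and Plin4 were not called by limma voom (adjusted p = 0.0662, 0.0888 and 0.0972). Scaling to the 6 stromal gate genes gave 6960 calls in all, 0 pathway genes higher and 41 lower, and turned the log2 fold changes of Cebpb (-0.27), Cebpd (-0.46), Cebpa (-0.07), Lepr (-0.33), Nr3c1 (-0.30), Klf4 (-0.33), Lrp1 (-0.00), Abca1 (-0.10) and Socs3 (-0.18). Of the comparisons between neighbouring levels 3 passed. Among them, Cebpb over Cebpd rested mostly on annotated lengths. Fabp4 over Adipoq is not read as a result, since Adipoq had no read in 4 of 8 libraries. With principal transcript lengths 0 passed. By construction the first scaling holds the mean of the stromal genes equal between the libraries, and the second changes which genes are neighbours.

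With the replicate number as a block, 1492 genes were called in all, 5 of the 10 genes, and 18 and 7 pathway genes higher and lower. The log2 fold change of Pparg was 1.29 and that of Adipoq 0.14 in that fit, and Klf4 lost its call (DESeq2 adjusted p = 0.0574). The r of same-numbered libraries ran from -0.17 to 0.25, and that of other pairs of a GFP- and a GFP+ library from -0.16 to 0.18. The labels do not name the mouse, so pairing by number was neither shown nor excluded. Over 147 values of the 10 genes' fold changes under other settings, 137 moved by less than the spread between libraries, and 5 changed sign, the 4 above and Adipoq without the 2 deepest libraries (-2.47). For 22 named pathway genes, 323 of 374 values kept the call, 46 lost it and 5 turned. Without GFP- replicate 3, r moved from -0.22 to -0.49 for Apod and Fabp4 and from -0.23 to -0.52 for Cebpa and Fabp4. Adipoq had at most 12 reads in a library, and no difference in it was detectable at this depth.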
